A study of Mus musculus with 6 samples.

Results

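The 78 genes described here encode the mitochondrial ribosomal proteins, and were taken from a table of 23060 gene names as every name made of Mrpl or Mrps, a number and at most 1 letter. Of these, 49 are named Mrpl, for the large subunit, and 29 Mrps, for the small subunit. The RNA-seq libraries carry the label HL-1, the name of a line of atrial muscle cells from mouse, of wild-type genotype and grown in Claycomb medium with serum, norepinephrine and glutamine, and they compare cells under tachypacing with controls. In tachypacing, fast electrical pulses drive the culture to imitate the rate of a fibrillating atrium. Each group holds 3 libraries, all of this 1 line, and the labels give neither rate nor duration of pacing. The labels do not say whether replicates were separate cultures, so each p-value rests on a spread between libraries that may be only technical.

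Mitochondria keep their own ribosome, the mitoribosome, which translates the few proteins encoded by the mitochondrial genome, all of them core subunits of the respiratory chain and the ATP synthase. Its RNA comes from mitochondrial DNA, while every one of its proteins is encoded in the nucleus, made in the cytosol and imported. Some of these proteins have homologues in the bacterial ribosome, and others were added in the mitochondrial lineage. The heart is rich in mitochondria, and inherited defects of several of these proteins, Mrpl44 and Mrps22 among them, cause combined deficiency of the respiratory chain, often with cardiomyopathy.

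Levels are given as FPKM, fragments scaled to transcript length and library total. Read depth is unknown, because the values hold no counts and did not fall on steps of whole reads. The label HL-1 was checked against 18 markers of cardiomyocytes. Between 11 and 13 of the 18 were listed at 0 in each library, among them Myh6, Actc1, Myl7, Nkx2-5 and Gata4 in all 6, and their summed level was 5.04 to 6.16 FPKM in control and 5.30 to 5.97 FPKM under tachypacing. Of 18 macrophage markers 4 were listed at 0 in each library (Mrc1, C1qa, C1qb and C1qc), and the summed level was 1673 to 1886 FPKM in control and 2069 to 2275 FPKM under tachypacing. Of 10 fibroblast and endothelial markers 3 to 6 were at 0, with sums of 1.67 to 2.03 FPKM. The data therefore go against the label, and the macrophage sum moved with the groups compared below. Its part in the results was not tested. The cultures are called control and tachypaced libraries throughout. In bulk RNA, a change in the number of cells of a type and a change in RNA per cell cannot be told apart.

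A member rose or fell here if it passed limma-trend at a Benjamini-Hochberg adjusted p of 0.05 over all 10361 genes whose mean reached 1 FPKM. All 78 members were above that level and none was at 0 in any library. In tachypaced libraries 3 members fell, Mrps22 of the small subunit and Mrpl44 and Mrpl18 of the large one, and 1 member of the large subunit, Mrpl52, rose. These 3 lower members were 3.85% of the 78, where 3.22% of all tested genes were lower, and the 1 higher member was 1.28%, where 2.30% of all tested genes were higher. The members' share of calls was thus near the background. With median of ratios scaling the calls were 1 higher and 1 lower in place of 1 and 3, where 221 of all tested genes were higher and 183 lower. Without the filter on low levels, with quantile normalization or without the trend no member passed in either direction, and at most 13 genes of the whole table were higher and 4 lower.

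The promoters of the 4 called members are shown because these are the members that the comparison separates. The windows are the RefSeq promoters on GRCm38.p6, from 250 bases before to 50 bases after the gene start, 5′ to 3′ on the gene's strand. Capitals mark a match to CCGGAAGT, the core of sites bound by ETS factors such as GABP, on either strand. Of the windows 3 hold 1 match each, at positions -11 (Mrps22), -240 (Mrpl18) and 2 (Mrpl52) counted from the RefSeq start, and the Mrpl44 window holds none. The start of Mrpl18 in the GENCODE annotation lies further upstream, so that its whole window falls inside the gene as given there. A match therefore stood in windows of genes that fell and of the gene that rose.
Mrps22, chr9:98601630-98601929, minus strand:
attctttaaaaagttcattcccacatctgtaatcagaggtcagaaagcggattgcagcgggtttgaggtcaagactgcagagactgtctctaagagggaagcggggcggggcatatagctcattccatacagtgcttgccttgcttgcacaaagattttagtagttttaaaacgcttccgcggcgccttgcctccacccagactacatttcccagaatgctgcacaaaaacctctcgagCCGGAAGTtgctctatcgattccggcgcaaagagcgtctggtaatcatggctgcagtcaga
Mrpl44, chr1:79775768-79776067, plus strand:
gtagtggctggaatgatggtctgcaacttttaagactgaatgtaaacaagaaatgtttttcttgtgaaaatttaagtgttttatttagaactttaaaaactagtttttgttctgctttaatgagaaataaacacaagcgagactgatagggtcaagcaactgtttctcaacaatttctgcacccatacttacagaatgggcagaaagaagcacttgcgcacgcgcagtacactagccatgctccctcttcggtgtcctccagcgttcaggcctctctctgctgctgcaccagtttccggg
Mrpl18, chr17:12916042-12916341, minus strand:
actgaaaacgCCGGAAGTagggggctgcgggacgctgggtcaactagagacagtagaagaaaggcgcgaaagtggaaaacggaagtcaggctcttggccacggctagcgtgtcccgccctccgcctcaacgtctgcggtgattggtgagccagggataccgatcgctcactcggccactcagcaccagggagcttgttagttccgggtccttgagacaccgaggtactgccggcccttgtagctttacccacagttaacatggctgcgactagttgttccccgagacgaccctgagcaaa
Mrpl52, chr14:54426659-54426958, plus strand:
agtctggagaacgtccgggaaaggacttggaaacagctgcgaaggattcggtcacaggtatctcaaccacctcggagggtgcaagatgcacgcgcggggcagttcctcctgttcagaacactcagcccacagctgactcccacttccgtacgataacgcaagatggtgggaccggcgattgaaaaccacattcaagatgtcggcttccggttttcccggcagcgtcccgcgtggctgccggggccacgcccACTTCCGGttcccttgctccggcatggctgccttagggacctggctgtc

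Across the family the RefSeq table had 75 windows for 69 of the 78 members. The ETS letters CCGGAAGT were in 16% of these windows, against 9.17% of the 10256 windows of tested genes and 3.89% of all 32851 windows. The letters GCATGCGC, from the site of NRF1 (nuclear respiratory factor 1, a regulator of nuclear genes for mitochondria), were in 10.7%, 5.74% and 2.71% of the same 3 sets. AAGATGGC, from the site of YY1, was in 16%, 4.92% and 2.75%. For comparison, the E-box CACGTG was in 9.33%, 10.5% and 7.15%, and TATAAA in 6.67%, 6.52% and 13.6%. All 5 were searched on both strands, and none of the 5 contains another. At least 1 of the ETS, NRF1 and YY1 letters stood in 29 of the 75 windows (38.7%), against 18.5% of windows of tested genes. The median GC content was 58.7% in the members' windows, 61% in those of tested genes and 52.7% in all windows, and its part in the shares was not tested. These matches are descriptions of the sequence and not sites of binding.

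The levels of the family spanned a 34.0-fold range although the assembled ribosome holds nearly all of these proteins in equal number. Mean levels over the 6 libraries ran from 4.001 FPKM to 136 FPKM, with 13 members over 50 FPKM, 48 between 10 and 50 FPKM and 17 under 10 FPKM. The median was 18.4 FPKM over the members and 10.7 FPKM over all tested genes. Mrps6, the homologue of bacterial S6, was the highest member, at 132, 135 and 153 FPKM in control and 143, 115 and 139 FPKM under tachypacing. The transporter gene Slc5a3 lies inside the Mrps6 gene on the same strand, with 146 ± 11.9 and 141 ± 12.7 FPKM, so reads could be assigned to either and the level of Mrps6 is uncertain. Next came Mrpl52 (83.3 FPKM over the 6 libraries), Mrpl42 (69.9) and Mrpl33 (68.5), which also had higher tachypaced than control values in every library. The lowest were Mrpl47 (4.001), Mrps35 (4.67), Mrpl35 (4.90) and Mrpl46 (5.35 FPKM). Members named Mrpl had a median level of 20.3 and those named Mrps of 15.2 FPKM.

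**Figure D1:**
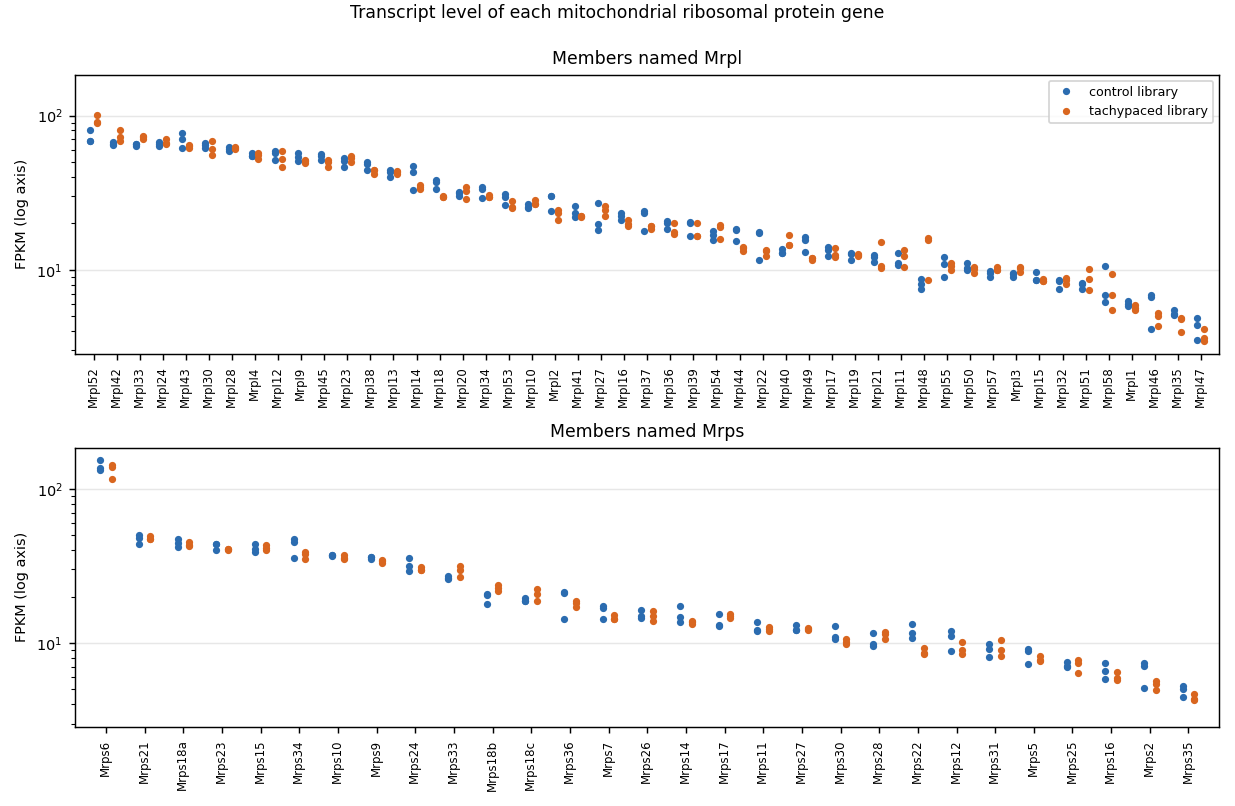
FPKM of each member in each library on a log axis, members named Mrpl above and Mrps below, ordered by mean level. Blue points are the 3 control and orange points the 3 tachypaced libraries. Levels run from 4.001 to 136 FPKM, and for most members the points of the groups lie among each other.

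Mrps22, a protein of the small subunit without a bacterial counterpart, had the largest decrease in the family. Its values were 10.7, 11.7 and 13.4 FPKM in control and 8.52, 9.27 and 8.60 FPKM under tachypacing. Every tachypaced value lay below every control value, with the nearest control value from replicate 1. The log2 fold change, taken on log2(FPKM + 1), was -0.40 (SE 0.08, limma-trend adjusted p = 0.0435). The tachypaced mean in FPKM was 0.737 of the control mean. The gene lies on chromosome 9 (98588730 to 98601660, GRCm38, minus strand). It overlaps the annotated gene Gm37637 on the other strand, for which no level is given here.

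Mrpl44, which carries a ribonuclease III-like fold and sits on the outside of the large subunit, was at 15.5, 18.1 and 18.5 FPKM in control and 13.9, 13.2 and 14.005 FPKM under tachypacing. The groups did not overlap, and control replicate 1 was again the lowest control. The log2 fold change was -0.31 (SE 0.08, adjusted p = 0.0484), and the mean in FPKM was 0.791 of the control mean. On chromosome 1 (79776018 to 79781445), Mrpl44 overlaps Wdfy1 on the other strand, at 20.8 ± 1.18 and 18.3 ± 0.917 FPKM, a log2 fold change of -0.17 (adjusted p = 0.126).

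Mrpl18, the homologue of the bacterial protein that binds 5S ribosomal RNA, was at 33.3, 37.3 and 38.2 FPKM in control and 30.1, 29.5 and 29.6 FPKM under tachypacing. The tachypaced values lay close together and below all controls. The log2 fold change was -0.28 (SE 0.06, adjusted p = 0.0460), and the mean in FPKM was 0.819 of the control mean. Mrpl18 (chromosome 17, 12911349 to 12916345) overlaps Tcp1, a subunit of the cytosolic chaperonin TRiC, on the other strand. Tcp1 was several times more abundant, at 201 ± 14.6 and 172 ± 10.4 FPKM, and its log2 fold change was -0.22 (adjusted p = 0.0774). The strand setting of the counting is not given in the sources used here. Reads of overlapping partners may therefore have been exchanged for both Mrpl18 and Mrpl44, and reads of Gm37637 may have been counted for Mrps22.

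Mrpl52, a protein of the large subunit specific to mitochondria, was the only member called higher. It stood at 81.1, 68.5 and 68.8 FPKM in control and 90.8, 102 and 89.1 FPKM under tachypacing. No values overlapped, and here control replicate 1 was the highest control. The log2 fold change was 0.36 (SE 0.08, adjusted p = 0.0448), and the mean in FPKM was 1.29 times the control mean. The gene (chromosome 14, 54426909 to 54429756) overlaps no other annotated gene.

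**Figure D2:**
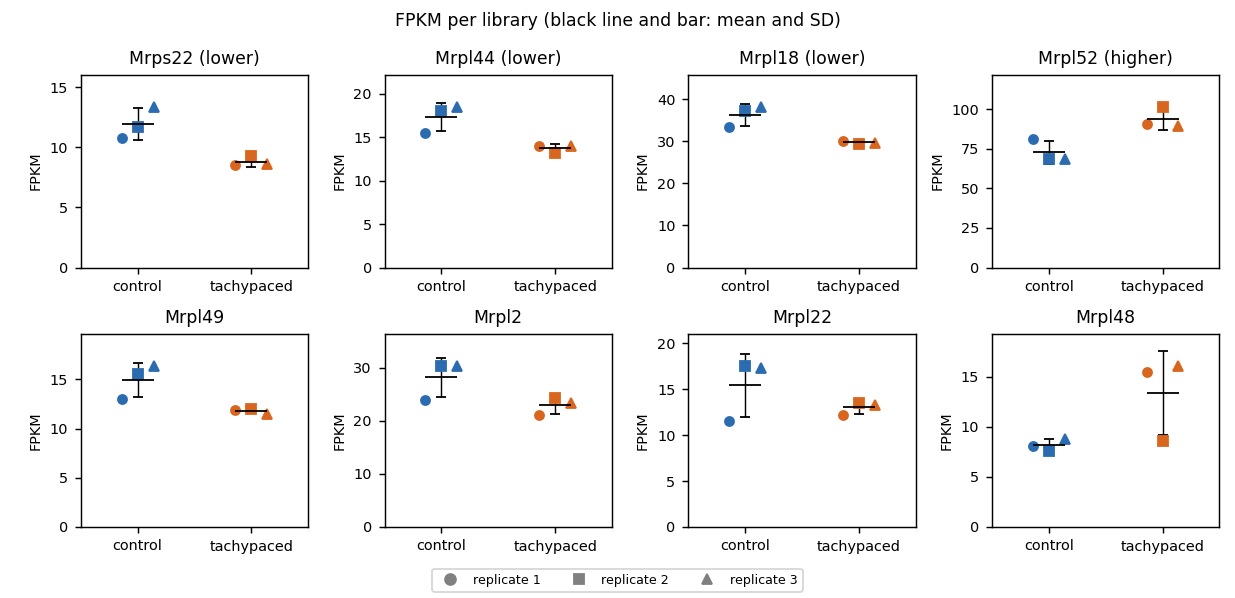
FPKM in each library for the 4 called members (title with the direction) and for Mrpl49, Mrpl2, Mrpl22 and Mrpl48, with the mean and SD of each group in black and the replicate number as the symbol. In Mrps22, Mrpl44 and Mrpl18 all tachypaced points lie below the controls, in Mrpl52 above them. In Mrpl22 control replicate 1 lies below the tachypaced points.

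The largest fold change belonged to Mrpl48, a protein of the central protuberance of the large subunit, but its tachypaced libraries did not behave alike. Controls were at 8.05, 7.56 and 8.77 FPKM and tachypaced libraries at 15.5, 8.58 and 16.1 FPKM. Tachypaced replicate 2 lay among the controls, while the others stood near 16 FPKM. The log2 fold change of 0.61 (SE 0.19) did not pass (adjusted p = 0.0818). Without tachypaced replicate 2 it was 0.88 (adjusted p = 0.0239). Mrpl48 spans chromosome 7 from 100545751 to 100608301, has 10 annotated transcripts, 4 RefSeq promoter windows and a named pseudogene, Mrpl48-ps. It overlaps Rab6a on the other strand, which stood at 67.9 ± 3.90 and 63.6 ± 1.59 FPKM. A gene value of this kind depends on which transcript models the reads were given to, and whether that differed between libraries was not tested.

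Among the other members with the largest decreases, Mrpl49 (mitochondrion-specific, large subunit) came closest to the test, at 14.96 ± 1.76 and 11.8 ± 0.229 FPKM (SD, n = 3 each), a log2 fold change of -0.31 with adjusted p = 0.0597. Its groups did not overlap. Mrpl2, whose bacterial homologue lies at the peptidyl transferase centre, was at 23.9, 30.2 and 30.3 FPKM in control and 20.99, 24.3 and 23.4 FPKM under tachypacing (log2 fold change -0.28, adjusted p = 0.0975). Mrpl14, at the face that meets the small subunit, was at 33.1, 43.1 and 47.2 FPKM in control and 34.3, 33.6 and 35.4 FPKM under tachypacing (-0.23, adjusted p = 0.194). Control replicate 1 fell among the tachypaced values in Mrpl2 and just below them in Mrpl14, and the other controls lay above them in both.

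Control replicate 1 was also the lowest control in Mrps2, Mrpl22 and Mrpl46. Mrps2, the homologue of bacterial S2, was at 5.11, 7.39 and 7.14 FPKM in control and 5.69, 5.46 and 4.95 FPKM under tachypacing (log2 fold change -0.23, adjusted p = 0.221). Mrpl22, whose homologue lines the exit tunnel for the new protein chain, was at 11.5, 17.5 and 17.3 FPKM in control and 12.3, 13.5 and 13.3 FPKM under tachypacing (-0.21, adjusted p = 0.332). Mrpl46 was at 4.11, 6.82 and 6.64 FPKM in control and 5.21, 5.004 and 4.32 FPKM under tachypacing (-0.21, adjusted p = 0.390). In Mrpl22 and Mrpl46 control replicate 1 was the lowest of all 6 libraries.

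Of the members with the largest increases, Mrpl40 (12.9, 12.9 and 13.6 to 16.8, 14.6 and 14.4 FPKM), Mrps18b (20.5, 17.96 and 20.7 to 21.8, 23.8 and 22.7 FPKM), Mrpl42 (64.8, 65.9 and 67.2 to 80.2, 72.4 and 68.8 FPKM) and Mrpl33 (63.9, 65.4 and 64.9 to 72.7, 73.5 and 70.5 FPKM) had tachypaced values above all control values. Their log2 fold changes were 0.20, 0.20, 0.16 and 0.16, and none passed the test (adjusted p = 0.106, 0.104, 0.135 and 0.0757). Mrpl27, whose bacterial homologue reaches into the peptidyl transferase centre, ranged from 18.1 to 27.2 FPKM among controls, so its log2 fold change of 0.17 (SE 0.13) was within their spread. Mrps33 stood at 26.4 ± 0.521 and 29.2 ± 2.35 FPKM (0.14, adjusted p = 0.203).

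Tachypaced values lay wholly above the controls in 7 members and wholly below them in 7, which is 8.97% of the 78 each. Of all tested genes 12.6% lay wholly above and 22.4% wholly below. Complete separation was therefore less common in this family than in the table as a whole, a description with no test. The 7 above were Mrpl3, Mrpl33, Mrpl40, Mrpl42, Mrpl52, Mrpl57 and Mrps18b. The 7 below were Mrpl18, Mrpl35, Mrpl44, Mrpl45, Mrpl49, Mrps9 and Mrps22. Mrpl45, which helps to hold the ribosome at the inner membrane, was at 54.2 ± 2.19 and 49.5 ± 2.50 FPKM (log2 fold change -0.13, adjusted p = 0.175).

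**Figure D3:**
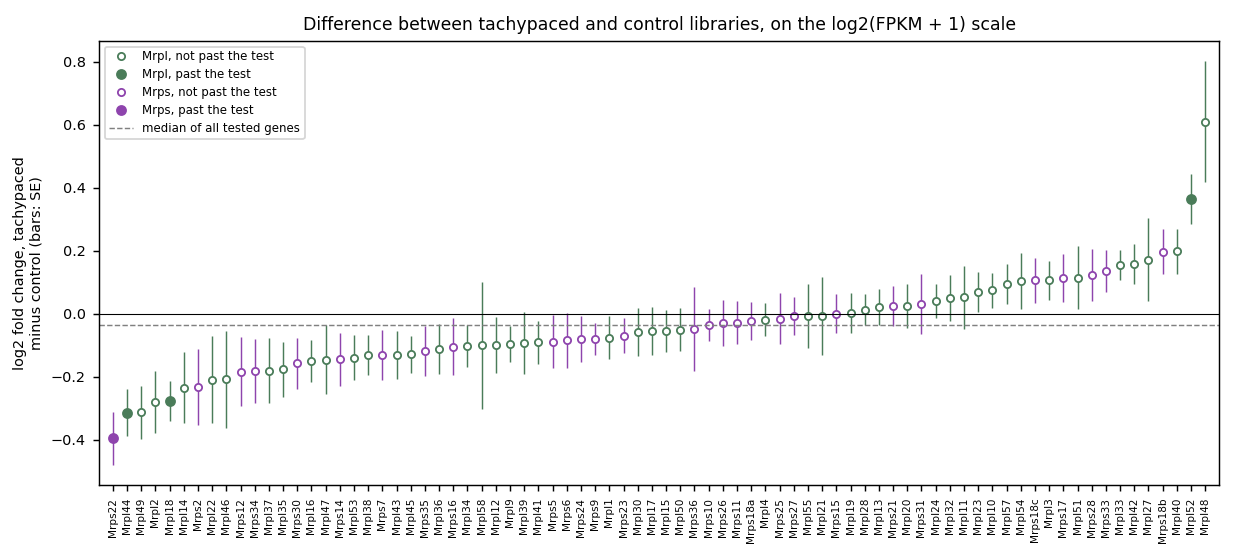
Log2 fold change of each member, tachypaced minus control, on the log2(FPKM + 1) scale with its SE, ordered by size. Filled points passed the test, green is Mrpl and purple Mrps, and the dashed line is the median of all tested genes. Most members lie within 0.2 of 0, with Mrps22 lowest and Mrpl48 highest and most uncertain.

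Over the whole family 51 log2 fold changes were below 0 and 27 above, with a median of -0.05, against -0.04 over all tested genes, of which 58.9% were below 0. The members' interquartile range lay between -0.13 and 0.04, and that of all tested genes between -0.15 and 0.08. The median was -0.05 for both the Mrpl and the Mrps members, with 2 lower and 1 higher among the 49 Mrpl genes and 1 lower and 0 higher among the 29 Mrps genes. At an unadjusted limma p of 0.05, 6 members were higher and 6 lower (7.69% each), where 10.8% of all tested genes were higher and 19.4% lower. The only Mrps gene among the 6 higher was Mrps18b. Replicate spread was small, with a median coefficient of variation of 7.11% in control and 4.78% in tachypaced libraries. The most variable members were Mrpl58 in control (30.1%) and Mrpl48 in tachypaced libraries (31.1%).

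Symbols do not always tell where a protein sits. Mrps30 and Mrps18a were named for the small subunit but are part of the large one in the known structures, and Mrps36 has since been assigned to the 2-oxoglutarate dehydrogenase complex. Mrps30 was at 11.5 ± 1.26 and 10.2 ± 0.432 FPKM, Mrps18a at 44.5 ± 2.82 and 43.8 ± 1.47 FPKM and Mrps36 at 19.0 ± 4.004 and 18.04 ± 0.933 FPKM (SD, n = 3 each), and none passed. Mrps36 has 3 named pseudogenes, so reads could be divided. Placed by structure, 51 members belong to the large subunit and 26 to the small one, with the same medians of -0.05. By their structural names, 46 members are counted as homologues of bacterial proteins and 31 as specific to mitochondria, Mrps18a and Mrps18b among the latter. Of the 46, 1 fell and 0 rose (median log2 fold change -0.05, at an unadjusted p of 0.05 3 lower and 1 higher). Of the 31, 2 fell and 1 rose (median -0.07, at an unadjusted p of 0.05 3 lower and 5 higher). Called members were 2.17% of the 46 and 9.68% of the 31, against 5.52% of all tested genes. Of all tested genes 19.4% were lower and 10.8% higher at the unadjusted p. Thus 3 of the 4 called members belong to the class specific to mitochondria, a difference that was not tested.

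The products of Mrps18a, Mrps18b and Mrps18c all resemble the bacterial protein S18 but take different places in the ribosome, and only that of Mrps18c keeps the structural name of S18. The level of Mrps18c was 19.0 ± 0.580 and 20.6 ± 1.86 FPKM, and its log2 fold change of 0.11 was positive as was that of Mrps18b (0.20), while that of Mrps18a was -0.02. None of the 3 passed. In Mrps18a the sign turned with median of ratios scaling (0.01).

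The stalk that recruits translation factors is built from Mrpl10, Mrpl11 and Mrpl12. Mrpl12, which is also reported to bind the mitochondrial RNA polymerase, was at 51.8, 58.7 and 57.4 FPKM in control and 46.2, 58.9 and 52.1 FPKM under tachypacing (log2 fold change -0.10, SE 0.09). Mrpl10 was at 25.8 ± 0.834 and 27.2 ± 0.859 FPKM and Mrpl11 at 11.5 ± 1.08 and 12.02 ± 1.58 FPKM. Mrpl58, a peptidyl-tRNA hydrolase that frees stalled chains, was at 6.22, 6.84 and 10.6 FPKM in control and 5.50, 9.44 and 6.85 FPKM under tachypacing, so its groups were mixed. Mrps12, at the decoding centre, was at 10.7 ± 1.65 and 9.24 ± 0.858 FPKM (log2 fold change -0.18, adjusted p = 0.282). Mrps28 was at 10.3 ± 1.08 and 11.3 ± 0.651 FPKM (0.12, adjusted p = 0.335).

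In this family control replicate 1 differed from its fellow controls. The mean log2 level of the members, relative to the mean of the controls, was -0.09 in this library, against 0.04 and 0.05 in control replicates 2 and 3 and -0.05, -0.02 and -0.05 in tachypaced replicates 1 to 3. It was thus below all tachypaced libraries. Over all tested genes the same measure was -0.01 in control replicate 1. This library was the lowest of the 3 controls in 54 of the 78 members, and in 41.7% of all tested genes. The summed level of the members was 2012 FPKM in it, 2180 and 2182 FPKM in the other controls and 2073 to 2108 FPKM under tachypacing.

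Without control replicate 1, 19 members were lower (24.4% of the 78) and 3 higher (3.85%), where 18.8% of all tested genes were lower and 11.2% higher. The lower members then included Mrps22 (log2 fold change -0.46), Mrpl46 (-0.41), Mrpl49 (-0.40), Mrpl22 (-0.40), Mrpl44 (-0.39), Mrpl2 (-0.39), Mrpl14 (-0.38), Mrps2 (-0.38), Mrpl18 (-0.33) and Mrps12 (-0.30), with adjusted p from 0.00198 to 0.0265, and the higher ones were Mrpl52 (0.44), Mrps18b (0.23) and Mrpl33 (0.15). In this family it is the control closest to the tachypaced group, so the larger numbers without it are no further support. Without any other single library 0 members were lower and at most 1 was higher, and over all tested genes at most 1 was lower and 3 were higher.

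**Figure D4:**
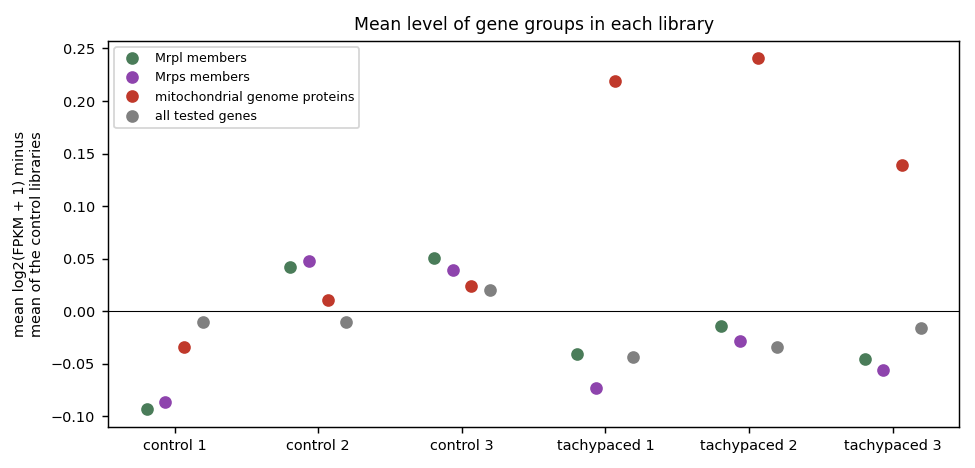
Mean log2(FPKM + 1) of the Mrpl members, the Mrps members, the 13 proteins of the mitochondrial genome and all tested genes in each library, relative to the mean of the control libraries. The members are lowest in control replicate 1 (-0.09), while the mitochondrial genome is highest in the 3 tachypaced libraries (0.14 to 0.24).

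The genes of the family lie on 17 chromosomes, with at most 11 on any, so that the family as a whole forms no single cluster. Smaller groups of neighbouring members were not searched for. In 18 of the 78 (23.1%) a protein-coding gene on the other strand starts within 1000 bases upstream, against 12.01% of 9809 tested protein-coding genes placed in the same annotation. Some of these pairs join related functions. Mrps12 starts 172 bases from Sars2, the mitochondrial seryl-tRNA synthetase (4.96 FPKM in control and 4.71 FPKM under tachypacing), and Mrps27 starts 81 bases from Ptcd2, an RNA-binding protein of mitochondria. The partner of Mrpl57 is Ska3, a spindle gene, which fell from 5.33 ± 0.451 to 3.44 ± 0.351 FPKM (log2 fold change -0.51, adjusted p = 0.0435) while Mrpl57 was at 9.42 ± 0.448 and 10.1 ± 0.299 FPKM. The partner of Mrpl51 is Ncapd2, a condensin subunit, which fell from 18.3 ± 4.65 to 10.8 ± 1.02 FPKM (-0.68, adjusted p = 0.0459) while Mrpl51 was at 7.92 ± 0.352 and 8.72 ± 1.36 FPKM (0.11, adjusted p = 0.468). In these 2 pairs, named because the partner passed, genes on both sides of a shared start region thus had different values. Of the 13 divergent partners that could be tested, these 2 were lower and 0 higher by limma, and the others did not pass. Of all tested genes 3.22% were lower and 2.30% higher, a difference that was not tested. Mrpl46 and Mrps11 overlap at their starts on opposite strands, with log2 fold changes of -0.21 and -0.03. In all, 36 members overlap a gene on the other strand and 13 a gene on the same strand.

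A further 5 proteins of the mitoribosome carry other names. Dap3, a GTP-binding protein of the small subunit, was at 59.8 ± 4.11 and 64.5 ± 0.445 FPKM. Chchd1 was at 50.1 ± 2.94 and 51.8 ± 1.99, Ptcd3 at 24.5 ± 0.927 and 23.8 ± 1.37, Aurkaip1 at 28.9 ± 2.43 and 26.8 ± 0.573, and Gadd45gip1, the only one of the large subunit, at 3.81 ± 0.299 and 3.37 ± 0.138 FPKM (SD, n = 3 each). By limma 0 of these 5 passed in either direction, where 3.22% of all tested genes were lower and 2.30% higher. At an unadjusted p of 0.05 it was also 0, where 19.4% of all tested genes were lower and 10.8% higher. With only 5 genes, these counts do not set the list apart.

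The factors that work with the mitoribosome were taken in lists of 14 and 30 tested genes. Of all tested genes 3.22% fell and 2.30% rose, so 0 calls in lists of this size do not set these factors apart. Of 14 tested translation factors 0 passed limma in either direction, with 2 lower and 0 higher at an unadjusted p of 0.05 and a median log2 fold change of -0.09. These were the elongation factors Gfm1, at 16.6, 20.9 and 23.01 FPKM in control and 14.8, 14.5 and 14.97 FPKM under tachypacing (-0.42, adjusted p = 0.0523), and Tufm, at 61.9 ± 9.28 and 47.6 ± 2.85 FPKM (-0.36, adjusted p = 0.0659). In both, all tachypaced values lay below the controls. The peptide deformylase gene Pdf had 0.18 (adjusted p = 0.397). Of 30 tested genes for assembly of the mitoribosome 0 passed (7 lower and 2 higher at an unadjusted p of 0.05, where 19.4% and 10.8% of all tested genes were, median -0.03). The GTPases Mtg1 and Noa1 had log2 fold changes of -0.41 and -0.39 (adjusted p = 0.111 and 0.0533), and Mterf4, which works in assembly of the large subunit, had -0.31 (adjusted p = 0.0635).

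Of 20 tested genes for transcription and handling of mitochondrial RNA 2 fell and 0 rose, with a median of -0.10. Of all tested genes 3.22% fell and 2.30% rose. Of the 20, 17 had log2 fold changes below 0. At an unadjusted limma p of 0.05, 5 were lower and 0 higher, against 19.4% and 10.8% of all tested genes. Grsf1, of the mitochondrial RNA granules, fell from 65.6 ± 5.18 to 51.5 ± 4.41 FPKM (-0.34, adjusted p = 0.0460). Ptcd1, a pentatricopeptide protein that acts on mitochondrial RNA, fell from 3.27 ± 0.137 to 2.24 ± 0.252 FPKM (-0.40, adjusted p = 0.0437). The helicase gene Supv3l1 was at 6.23 ± 1.51 and 4.71 ± 0.533 FPKM (-0.32, adjusted p = 0.180). Of 16 tested mitochondrial tRNA synthetases 1 rose and 0 fell, but 12 of the log2 fold changes were below 0, with a median of -0.11. At the same unadjusted p, 1 synthetase was higher and 5 were lower. The gene that rose was Lars2, the leucyl enzyme, from 143, 141 and 123 FPKM in control to 187, 195 and 184 FPKM under tachypacing (0.48, adjusted p = 0.0435). The next most abundant synthetase of this list, Iars2, was at 20.7 FPKM over the 6 libraries, so the value of Lars2 stood far above the rest. Whether all reads counted for Lars2 came from that gene was not tested. Iars2 had a log2 fold change of -0.22 (adjusted p = 0.0502). Mars2, the methionyl enzyme, had a log2 fold change of 0.23 (adjusted p = 0.173).

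Of 12 tested regulators of genes for mitochondria 1 fell and 0 rose, where 3.22% of all tested genes fell and 2.30% rose. Of the 12, 10 had log2 fold changes below 0, with a median of -0.09. At an unadjusted limma p of 0.05, 4 were lower and 1 higher, against 19.4% and 10.8% of all tested genes. Tfam is in both this list and that for transcription and handling of mitochondrial RNA, and is counted as lower in each. Nrf1, whose motif was counted above, fell from 10.9, 11.9 and 11.6 FPKM to 7.91, 8.49 and 9.41 FPKM (log2 fold change -0.38, SE 0.08, adjusted p = 0.0435), and the groups did not overlap. Members with the NRF1 letters in a window had log2 fold changes on both sides of 0, from -0.21 (Mrpl22) to 0.20 (Mrps18b). None of them passed, and a link to the level of Nrf1 was not tested. Gabpa, the DNA-binding subunit of GABP, was at 20.2 ± 0.557 and 17.2 ± 0.830 FPKM (-0.22, adjusted p = 0.0603), and its partner Gabpb1 at 4.37 ± 0.161 and 5.25 ± 0.350 FPKM (0.22, adjusted p = 0.0935). The co-activator Ppargc1a was at 0.0188 FPKM over the 6 libraries.

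This ribosome translates the transcripts of the 13 proteins of the mitochondrial genome. These transcripts had log2 fold changes from 0.06 to 0.40, all above 0. Their median was 0.21, against -0.05 for the transcripts of the ribosomal proteins. The values are of RNA, and no protein was measured. Of the 13, 3 rose and 0 fell (23.1% called), where 2.30% of all tested genes rose and 3.22% fell. For example, mt-Co3, a cytochrome c oxidase subunit, was at 3090, 2989 and 3037 FPKM in control and 4179, 4100 and 3752 FPKM under tachypacing. Their share of the summed FPKM was 7.91% to 8.42% in control and 9.001% to 9.72% in tachypaced libraries. When each library was rescaled to a common total without the mitochondrial genome, 4 members were lower and 1 higher, and of all 10361 tested genes 634 were lower (6.12%) and 261 higher.

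**Figure D5:**
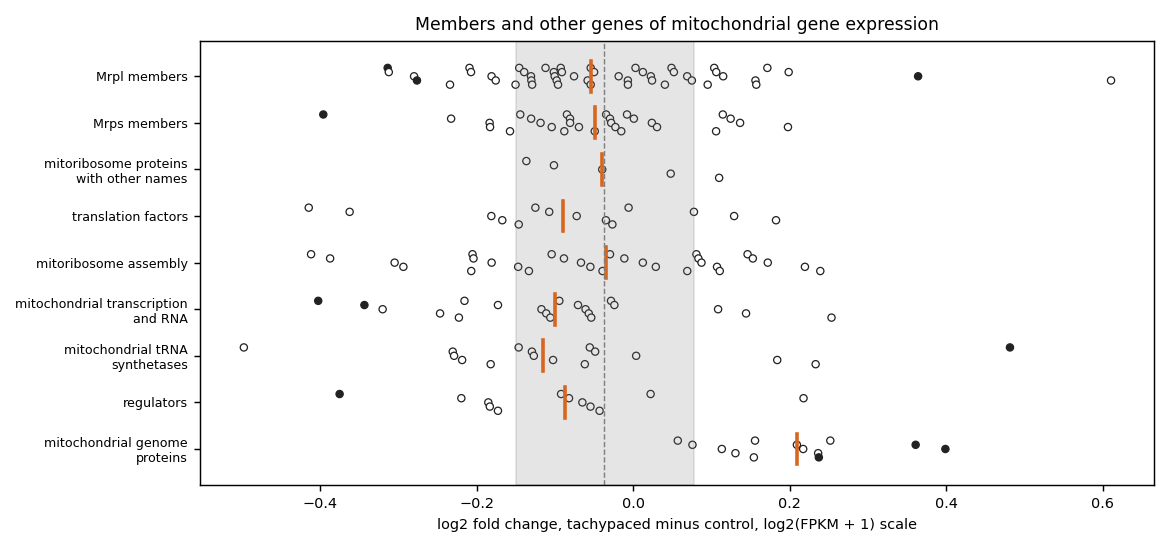
Log2 fold change of every tested gene, tachypaced minus control on the log2(FPKM + 1) scale, for the Mrpl and Mrps members and 7 lists of other genes of mitochondrial gene expression. Filled points passed the test, orange bars are medians, and the grey band and dashed line are the interquartile range and the median of all tested genes. The 13 mitochondrial genome proteins lie to the right of 0 (median 0.21), and the medians of the other groups lie between -0.11 and -0.03.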

How the data were processed

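The authors deposited FPKM values, 1 row per gene name and 1 column per library, per the labels for 3 control and 3 tachypaced samples whose descriptions name the columns. Libraries were made with a SMARTER mRNA kit from total RNA, per the labels' protocols, and the submitters' processing notes name the build GRCm38 (mm10). How reads were aligned and quantified, with which annotation and whether by strand, is not given in the sources used here. Reads shared by overlapping or similar genes may be divided between them, and each value is relative to its library's total.

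Values were transformed to log2(FPKM + 1), which understates changes of low genes. The 10361 genes whose mean reached 1 FPKM were fitted with limma 3.58.1 in R 4.3.3 (two-sided, with trend and without covariates, as tachypaced minus control) and adjusted by Benjamini-Hochberg over all of them. With 3 libraries a group, exact permutation cannot reach below p = 0.1 and was not used. Between libraries, the ratios of low values showed no common step (at most 4.28% fell in a bin of 0.05 log2), so no depth could be recovered. Positions are from GENCODE M21, which placed all 78 members. Promoters are from the RefSeq table. Python 3.11.15 was used for sequences and figures.

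The members and lists were chosen with earlier results of these data known. Named members are those that passed, the 8 largest changes each way, the 4 highest and 4 lowest levels and a set with known tasks. From each list, genes that passed and those with the largest changes are named, except 1 gene that is not reported here. The members named only because their groups did not overlap, and partner genes, were picked once their values had been seen. Tried as alternatives were another pseudocount, other filters, scalings, limma settings, library weights, the replicate number as a block, a threshold of 0.1 and leaving out each library.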

Additional observations from a re-analysis of the deposited data

How the results depend on the processing

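In the analysis reported, 1 member was higher and 3 were lower. The counts of higher and lower members were 0 and 0 without a filter, with quantile normalization and without the trend, 1 and 1 with median of ratios scaling, 5 and 16 with library weights, 3 and 5 at an adjusted p of 0.1, and 2 and 4 with the replicate number as a block. Leaving out single libraries gave 0 to 3 higher and 0 to 19 lower, the highest numbers without control replicate 1. These moves ran through the whole table: of all tested genes 1154 were higher and 1942 lower with library weights, 724 and 1250 at 0.1, 334 and 591 with the block, 0 and 0 without a filter, 13 and 4 with quantile normalization and 2 and 0 without the trend. The causes were not tested. Mrps22, Mrpl44, Mrpl18 and Mrpl52 kept their direction in all 18 alternatives and passed in 10, 9, 9 and 10 of them, with adjusted p between 0.00189 and 0.177. Changing the filter, the trend or robust setting, the block or the threshold left their log2 fold changes as they were, so no direction could turn there. The threshold of 0.1 was applied to the fit of the analysis reported, so a pass there was certain. The sign turned for Mrps18a with median of ratios (0.0064) and for Mrps36 with quantile normalization (0.0042). On leaving out single libraries the log2 fold change also crossed 0 for Mrps18a (-0.068 to 0.021), Mrps36 (-0.229 to 0.042), Mrpl58 (-0.283 to 0.108), Mrps6 (-0.143 to 0.0098) and Mrpl11 (-0.030 to 0.147). Of these values only that of Mrps36 without control replicate 1 passed. In the labels, same-numbered samples shared only a number. Their deviations from the group means correlated at 0.06, -0.03 and 0.16, and not every sample correlated best with its own number. With 3 libraries a group, these correlations cannot decide whether the replicates were paired. The replicate block added Mrpl2 (adjusted p = 0.0407) and Mrpl48 (adjusted p = 0.0442) to the calls.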
